A study of Mus musculus with 8 samples.

Results

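The transcripts described here belong to the choice of T cells between leaving a tissue and staying in it, measured in regulatory T (Treg) cells of the mouse large intestine with and without the aryl hydrocarbon receptor, Ahr. They are S1pr1, S1pr4, Klf2, Ccr7 and Cd69, taken by symbol from the deposited RNA-seq count table, in which they were 5 of 19191 gene rows. All 5 were present in each library and all 5 passed the filter on low counts. The KO mice carried the genotype Ahrf/- Foxp3Yfp-Cre, a floxed and a null Ahr allele, and the WT mice carried Ahrf/+ Foxp3Yfp-Cre, a floxed and an intact Ahr allele. Both genotypes were on the C57BL/6 strain and both carried Cre recombinase made from the Foxp3 locus, so the floxed allele was a target for deletion in Foxp3-expressing cells of WT mice too, and WT Treg cells were left with a single intact copy. Cells outside the Foxp3 lineage had a single working Ahr copy in KO mice and a full pair in WT mice, so effects within Treg cells and effects of the surrounding tissue cannot be told apart. Treg cells were sorted by flow cytometry from lamina propria, with 2 KO and 2 WT libraries of total RNA, and the sources used here give neither age nor sex of the mice. Nothing in the labels ties the replicates to different animals, and the spread behind the p-values may be technical only.

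T cells leave tissues and lymphoid organs along a gradient of the lipid sphingosine 1-phosphate (S1P), which is high in blood and lymph and low inside tissues. S1PR1 is the main receptor that reads this gradient, the transcription factor KLF2 switches its gene on, and CCR7 steers T cells into lymph nodes and into the lymphatic vessels that drain tissues. CD69, a surface protein induced by activation, binds S1PR1 and pulls it from the cell surface, and cells resident in tissue typically carry CD69 with little S1PR1. The comparison of KO with WT asks whether the transcripts on either side of this balance differ in gut Treg cells when Ahr is lost.

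The total gene count per library was 30993483 and 53438828 in KO and 26862922 and 62402450 in WT, and replicate 2 was the deeper library in both genotypes. Levels are given as CPM, which are counts scaled to a library size of 1000000, taken over tested genes and corrected by TMM. Replicate 2 also stood apart by Lars2, at 0.724% of counts in KO and 1.66% in WT, against 0.0633% in KO and 0.0367% in WT replicate 1, so log2 ratios within each replicate number are given beside the fitted values. Counts over the whole Ahr gene were 536 and 518 CPM in KO and 581 and 539 CPM in WT (log2 fold change -0.09 ± 0.09, SE). A floxed allele can still be transcribed and counted outside the deleted exons, so this value is no check of the deletion or of the labels. Foxp3, the defining factor of Treg cells, stood at 250.1 and 259 CPM in KO and 280 and 252 CPM in WT. Of 9 Treg and T cell markers tested, 6 were higher in KO and 3 lower, Foxp3 among the lower. Over all tested genes 52.0% were higher. Both KO libraries lay above both WT libraries for 3 of them (Ctla4, Cd4 and Tnfrsf18) and below them for 0, against 13.5% and 13.4% of all tested genes. None of the 9 was called different by the tests given below.

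No member of the group was called different between KO and WT. edgeR's quasi-likelihood test, with Benjamini-Hochberg adjustment over all 14274 genes tested, called 0 genes (0% of those tested), and an unadjusted p under 0.05 was reached by 407 genes (2.85%, 234 of them higher in KO and 173 lower). DESeq2 called 48 genes (0.267% of those with an adjusted p) and 66 genes (0.344%) were under the same threshold in the authors' deposited table, and none of the 5 was among either. Each of the 5 had an adjusted p of 1.00 in both edgeR and DESeq2. In the authors' deposited table the adjusted p was 0.889 for S1pr1, S1pr4, Klf2 and Ccr7 and 0.888 for Cd69. The fitted log2 fold changes of KO over WT lay between -0.18 for Cd69 and 0.25 for S1pr4.

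**Figure D1:**
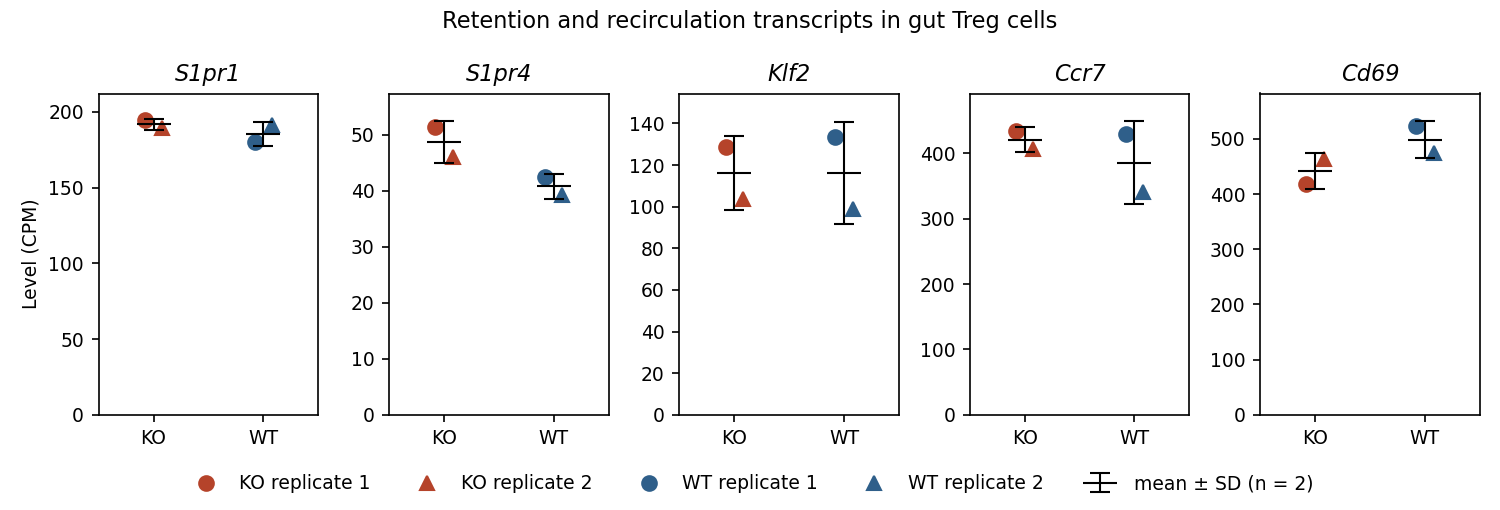
Level in CPM (vertical axes, each starting at 0) of the 5 transcripts in KO and WT libraries, with replicate 1 as circles, replicate 2 as triangles, and bars for mean ± SD (n = 2 per genotype). The KO libraries lie above the WT libraries for S1pr4 and below them for Cd69, and the genotypes overlap for S1pr1, Klf2 and Ccr7.

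S1pr1, the egress receptor, was the most tightly measured of the 5 (chromosome 3, 115413351 to 115417973, minus strand, mm9). It held 5968 and 9999 counts in KO and 4838 and 12176 in WT. These corresponded to 194 and 189 CPM in KO against 180 and 191 CPM in WT. The genotypes overlapped, and WT replicate 1 was the lowest of the 4 libraries. The mean was 192 ± 3.77 CPM in KO and 186 ± 7.83 CPM in WT (SD, n = 2). The log2 fold change was 0.05 ± 0.09 (SE), with 0.11 within replicate 1 and -0.02 within replicate 2. Its 95% interval spans a KO level of 0.891 to 1.20 times the WT level, before any adjustment for the number of genes tested.

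S1pr4, a second S1P receptor of lymphocytes, had the highest fold change of the 5 (chromosome 10, 80961223 to 80962452, minus strand). It stood at 51.3 and 46.0 CPM in KO against 42.4 and 39.2 CPM in WT, from 7645 counts in all. Both KO libraries were higher than both WT libraries. The mean was 48.7 ± 3.76 CPM in KO and 40.8 ± 2.24 CPM in WT (SD, n = 2). The log2 fold change was 0.25 ± 0.11 (SE), with 0.28 within replicate 1 and 0.23 within replicate 2, and the 95% interval ran from 0.980 to 1.45 times the WT level. The edgeR p was 0.0700 before adjustment and 1.00 after it over all tested genes.

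The other S1P receptor genes put this in context. S1pr2, whose receptor couples to G12/13 proteins and holds cells in place, stood at 28.9 and 30.8 CPM in KO and 30.5 and 27.6 CPM in WT, a log2 fold change of 0.04 ± 0.11 with overlapping genotypes. S1pr3, a receptor of vascular and stromal cells, held 10 and 33 counts in KO and 3 and 23 in WT. S1pr5, the egress receptor of NK cells, held 1 count in KO replicate 1 and 0 in the other libraries, and was not tested. The S1P receptors of these sorted cells were therefore represented by S1pr1, S1pr4 and S1pr2 transcripts.

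Klf2, which keeps T cells quiescent and drives S1pr1, had nearly the same mean in both genotypes (chromosome 8, 74842932 to 74845555, plus strand). It stood at 129 and 104 CPM in KO against 133 and 99.0 CPM in WT, with means of 116 ± 17.7 CPM in KO and 116 ± 24.3 CPM in WT (SD, n = 2). The values overlapped, and in both genotypes replicate 1 was the higher library. The log2 ratio of replicate 2 over replicate 1 was -0.31 in KO and -0.43 in WT, against -0.05 and 0.06 for KO over WT within replicates 1 and 2. The fitted log2 fold change was -0.0012 ± 0.18 (SE), and its sign was positive without KO replicate 2 (0.15) or WT replicate 1 (0.23). The 95% interval, from 0.730 to 1.37 times the WT level, is the widest of the 5.

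Foxo1, the factor that acts upstream of Klf2, Ccr7 and Il7r, followed the same split by library. It stood at 390.2 and 279.7 CPM in KO and 390.8 and 241 CPM in WT, a log2 fold change of 0.09 ± 0.27. Of 11 Klf and Foxo genes tested, 9 were higher and 2 lower, against 52.0% higher over all tested genes. Among the 11, 0 were called by edgeR, DESeq2 or the authors' deposited table. The median log2 fold change was 0.05, beside 0.01 over all tested genes, and its sign rested on single libraries. It was -0.061 without KO replicate 1, 0.11 without KO replicate 2, 0.23 without WT replicate 1 and -0.065 without WT replicate 2. Klf12 (0.34 ± 0.23), Klf10 (0.26 ± 0.16) and Klf6 (0.19 ± 0.14) had the highest fold changes of that list. Klf10 had -0.04 within replicate 1 and 0.53 within replicate 2, and Klf6 0.03 and 0.32. Without KO replicate 2 the fold changes were 0.034 for Klf10 and 0.015 for Klf6.

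Ccr7, the lymph node homing receptor, was not called either (chromosome 11, 99005510 to 99016391, minus strand). It stood at 434 and 407 CPM in KO against 430 and 340.3 CPM in WT. Both KO libraries and WT replicate 1 lay close together, and WT replicate 2 was lower than these. The mean was 420.4 ± 19.0 CPM in KO and 385 ± 63.4 CPM in WT (SD, n = 2). The log2 fold change was 0.13 ± 0.13 (SE), with 0.01 within replicate 1 and 0.26 within replicate 2, and it was -0.033 without WT replicate 2. The 95% interval ran from 0.868 to 1.37 times the WT level.

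The CCL21 ligands of CCR7 were measured at trace levels, and the deposited counts held no row under the symbol Ccl19, its other ligand gene. Ccl21a, Ccl21b and Ccl21c encode near-identical copies of CCL21, the chemokine of lymphatic vessels and lymph node stroma, so the values of single copies are uncertain. Ccl21a held 77 and 126 counts in KO and 47 and 68 in WT, Ccl21b held 32 and 86 in KO and 23 and 47 in WT, and Ccl21c held 39 and 58 in KO and 18 and 35 in WT. Their log2 fold changes were 0.81 ± 0.36, 0.76 ± 0.43 and 0.96 ± 0.42, and none was called (edgeR adjusted p = 1.00). Both KO libraries lay above both WT libraries in CPM for the 3 copies, which are not separate cases, against 13.5% of all tested genes. Markers of lymphatic endothelium were at similar trace levels. Lyve1 stood at 4.24 and 5.24 CPM in KO and 4.13 and 2.65 CPM in WT, and Flt4 at 2.31 and 2.67 CPM in KO and 1.82 and 1.49 CPM in WT, both without overlap. Prox1 stood at 4.33 and 3.48 CPM in KO and 3.61 and 2.67 CPM in WT. The part of such cells in the Ccl21 values was not tested. Ccrl1, a scavenger of CCR7 ligands, had a log2 fold change of 0.25 ± 0.40.

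Cd69, the retention partner, was lower in both KO libraries than in both WT libraries without passing any test (chromosome 6, 129217342 to 129225387, minus strand). It held 12829 and 24533 counts in KO and 14045 and 30225 in WT. These were 418 and 464 CPM in KO against 523 and 475 CPM in WT. KO replicate 2 and WT replicate 2 lay close together, and the gap came mostly from the replicate 1 libraries. The mean was 441 ± 32.6 CPM in KO and 499 ± 34.2 CPM in WT (SD, n = 2). The log2 fold change was -0.18 ± 0.10 (SE), with -0.32 within replicate 1 and -0.03 within replicate 2, and the 95% interval ran from 0.742 to 1.05 times the WT level. The edgeR p was 0.136 before adjustment. In bulk samples fewer cells with a transcript and less of it per cell cannot be told apart.

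Of the 5 genes, S1pr4 and Cd69 were the 2 whose genotypes did not overlap, against 27.0% of all tested genes (13.5% with KO higher and 13.4% with KO lower). Against that background, 2 of 5 is no result about these genes. Among all tested genes, the S1pr4 fold change lay at the 89.2 percentile, Ccr7 at 78.1, S1pr1 at 61.2, Klf2 at 47.6 and Cd69 at 15.3.

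**Figure D2:**
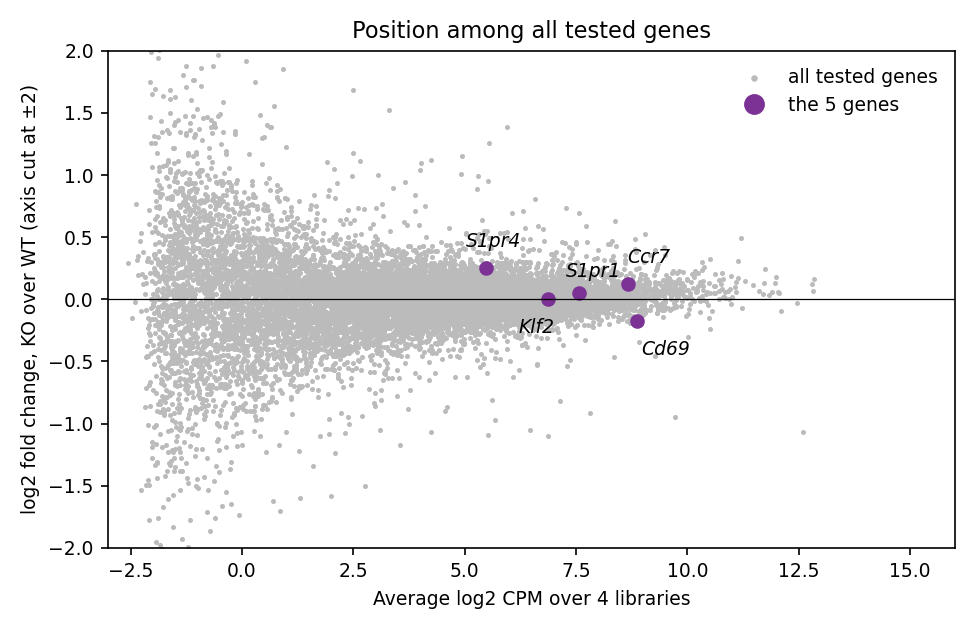
log2 fold change of KO over WT (vertical axis) against average log2 CPM (horizontal axis) for all 14274 tested genes in grey, with the 5 genes in purple. The vertical axis stops at 2 on either side, which leaves out 43 genes, and the 5 genes lie inside the cloud of genes of similar level.

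**Figure D3:**
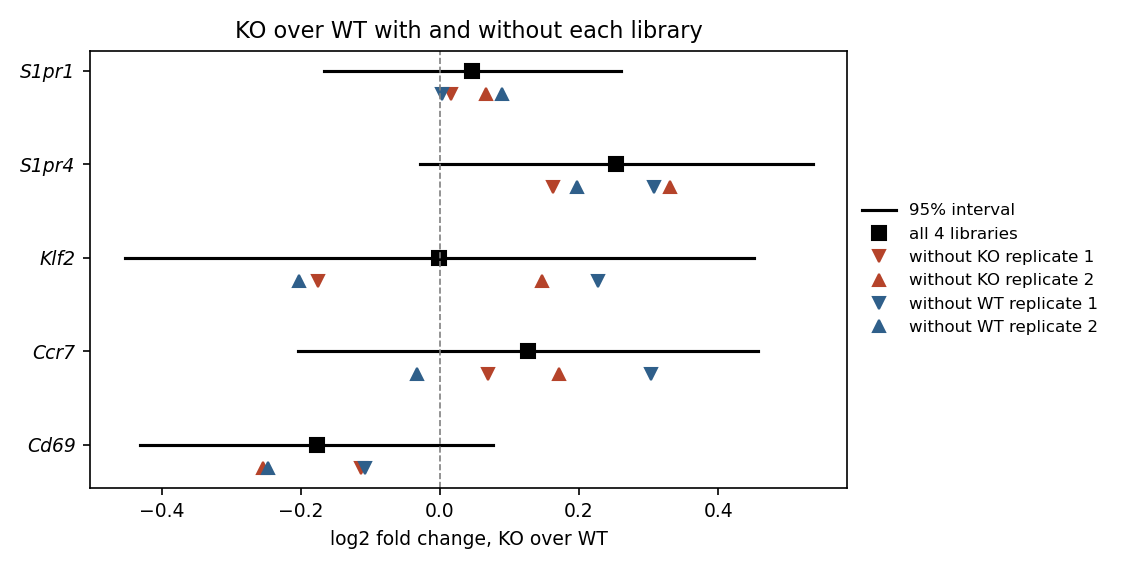
log2 fold change of KO over WT (horizontal axis) of the 5 genes, with squares for the fit to 4 libraries, lines for its 95% interval, and triangles for edgeR fits that leave out a library. Every interval crosses 0, S1pr1, S1pr4 and Cd69 keep their sign in the 4 fits without a library, and Klf2 and Ccr7 do not.

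RefSeq upstream windows were matched by symbol for 2 of the 5 genes, Klf2 and S1pr4, and not for S1pr1, Ccr7 and Cd69. They are shown because Ahr acts by binding DNA, and so that the letters searched can be seen. The Klf2 window is chr8:72318812-72319061 on the plus strand and the S1pr4 window chr10:81500138-81500387 on the minus strand, both on GRCm38.p6, while all gene positions above are on mm9. Each holds the 250 bases before the RefSeq start, which need not be the start in the annotation behind the counts. Capitals mark the CACCC box, a core of sites bound by KLF proteins, read on either strand (CACCC or GGGTG).
Klf2: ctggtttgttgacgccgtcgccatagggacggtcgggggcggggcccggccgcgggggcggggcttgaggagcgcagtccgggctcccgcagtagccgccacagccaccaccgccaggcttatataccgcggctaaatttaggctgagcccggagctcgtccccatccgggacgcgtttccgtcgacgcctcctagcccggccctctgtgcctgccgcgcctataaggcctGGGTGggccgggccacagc
S1pr4: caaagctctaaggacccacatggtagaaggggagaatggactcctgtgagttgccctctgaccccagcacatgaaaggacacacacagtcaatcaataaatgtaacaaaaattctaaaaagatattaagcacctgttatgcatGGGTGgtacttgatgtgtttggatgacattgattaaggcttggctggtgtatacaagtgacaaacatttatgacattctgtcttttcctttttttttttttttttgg
Each window held 1 CACCC box, and 52.0% of all 32851 RefSeq windows of this length held at least 1. The Ahr core motif GCGTG, searched on both strands, had no match in either window and a match in 28.2% of all windows. The forkhead motif GTAAACA, of the family that includes FOXO1, had no match in either and a match in 3.17% of all. No match says only that these letters are not in these windows. G and C made up 71.2% of the Klf2 window and 38.8% of the S1pr4 window, against a median of 52.4% over all windows.

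Enzymes that set the S1P gradient did not separate the genotypes either. Of 11 genes of S1P synthesis, breakdown and transport tested, 8 were higher and 3 lower, against 52.0% higher over all tested genes. Among the 11, 0 were called. Their median log2 fold change was 0.06, which turned to -0.080 without KO replicate 2 and was 0.018 without KO replicate 1. Sgpl1, the lyase that degrades S1P and keeps it low in tissue, stood at 144 and 137 CPM in KO and 138 and 131 CPM in WT (log2 fold change 0.07 ± 0.09). Sphk2, a kinase that makes S1P, stood at 65.3 and 54.4 CPM in KO and 58.9 and 48.6 CPM in WT (0.16 ± 0.15). Of 12 genes of S1P receptor signalling and desensitisation tested, 8 were higher and 4 lower, 0 were called, and the median was 0.02. The 3 of lowest p were Rac1 (0.13 ± 0.09) and Rac2 (0.12 ± 0.08), which drive migration downstream of the receptor, and Gnai3 (0.10 ± 0.08), a G protein subunit.

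The wider lymphoid recirculation list, which includes 4 of the 5 genes, had 10 of 18 tested genes higher and 8 lower. Over all tested genes, 52.0% were higher. Among the 18 genes of the list, 0 were called by edgeR, DESeq2 or the authors' deposited table. Both KO libraries lay above both WT libraries for 4 genes (S1pr4, Satb1, Itgal and Ly6c1) and below them for 3 (Tcf7, Lef1 and Selplg), against 13.5% and 13.4% of all tested genes. Its median log2 fold change was 0.03 (0.04 within replicate 1 and 0.06 within replicate 2), beside 0.01 over all tested genes, and it was negative without KO replicate 1 (-0.07) or WT replicate 2 (-0.04). Il7r, the survival receptor of naive and memory T cells, had -0.10 ± 0.16. Tcf7 and Lef1 encode factors of less differentiated T cells. Tcf7 stood at 100.02 and 101 CPM in KO and 116 and 112 CPM in WT (-0.18 ± 0.09). Lef1 had -0.10 ± 0.10, and its KO replicate 2 (60.9 CPM) and WT replicate 2 (61.0 CPM) nearly coincided.

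The tissue retention list, which includes Cd69, had 13 of 17 tested genes higher and 4 lower, against 52.0% higher over all tested genes. Its median log2 fold change was 0.12, with 0.01 within replicate 1 and 0.27 within replicate 2, and it was 0.015 without WT replicate 2 and 0.21 without WT replicate 1. Cd69 and Itgae lay at the low end of the list. Itgae, the CD103 integrin chain that binds E-cadherin on epithelium and often marks resident cells with CD69, stood at 111 and 93.2 CPM in KO and 202 and 158 CPM in WT (log2 fold change -0.82 ± 0.16). It was the only gene of the list called by DESeq2 (adjusted p = 0.00120) or by the authors' deposited table (adjusted p = 7.77e-06), and edgeR did not call it (adjusted p = 0.882). The DESeq2 call of Itgae was lost when KO replicate 2 (adjusted p = 0.999) or WT replicate 1 (0.461) was left out, and was made when KO replicate 1 (0.00570) or WT replicate 2 (7.94e-04) was left out.

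Among the other retention genes, Nr4a1 (-0.14 ± 0.13) and P2rx7 (-0.10 ± 0.11) were lower, like Cd69 and Itgae. The rest of the list lay on the opposite side, with Nr4a2, Nr4a3, Runx3 and Icos only between 0.03 and 0.07. Cxcr6, a chemokine receptor of resident T cells, stood at 379.6 and 301 CPM in KO and 255 and 246 CPM in WT (log2 fold change 0.44 ± 0.13). Rgs1, a brake on chemokine and S1P receptor signalling, stood at 2357 and 2587 CPM in KO and 2072 and 1921 CPM in WT (0.31 ± 0.11). Rgs2, a gene of the same family, stood at 1531 and 1709 CPM in KO and 1290.5 and 1301 CPM in WT (0.32 ± 0.10). None of these 3 genes was called by edgeR (adjusted p = 1.00), DESeq2 or the authors' deposited table. Both KO libraries exceeded both WT libraries for 6 of the 17 retention genes, these 3 among them, against 13.5% of all tested genes, and lay below them for 2, Cd69 and Itgae. Cdh1, the gene of E-cadherin, was also among the 6, with only 26 and 80 counts in KO and 7 and 40 in WT. Its log2 fold change of 1.36 ± 0.60 was the highest of the list, and it was not called. Prdm1, which encodes Blimp-1, had 0.19 ± 0.11, and Itga1, the CD49a integrin chain, had 0.31 ± 0.33.

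**Figure D4:**
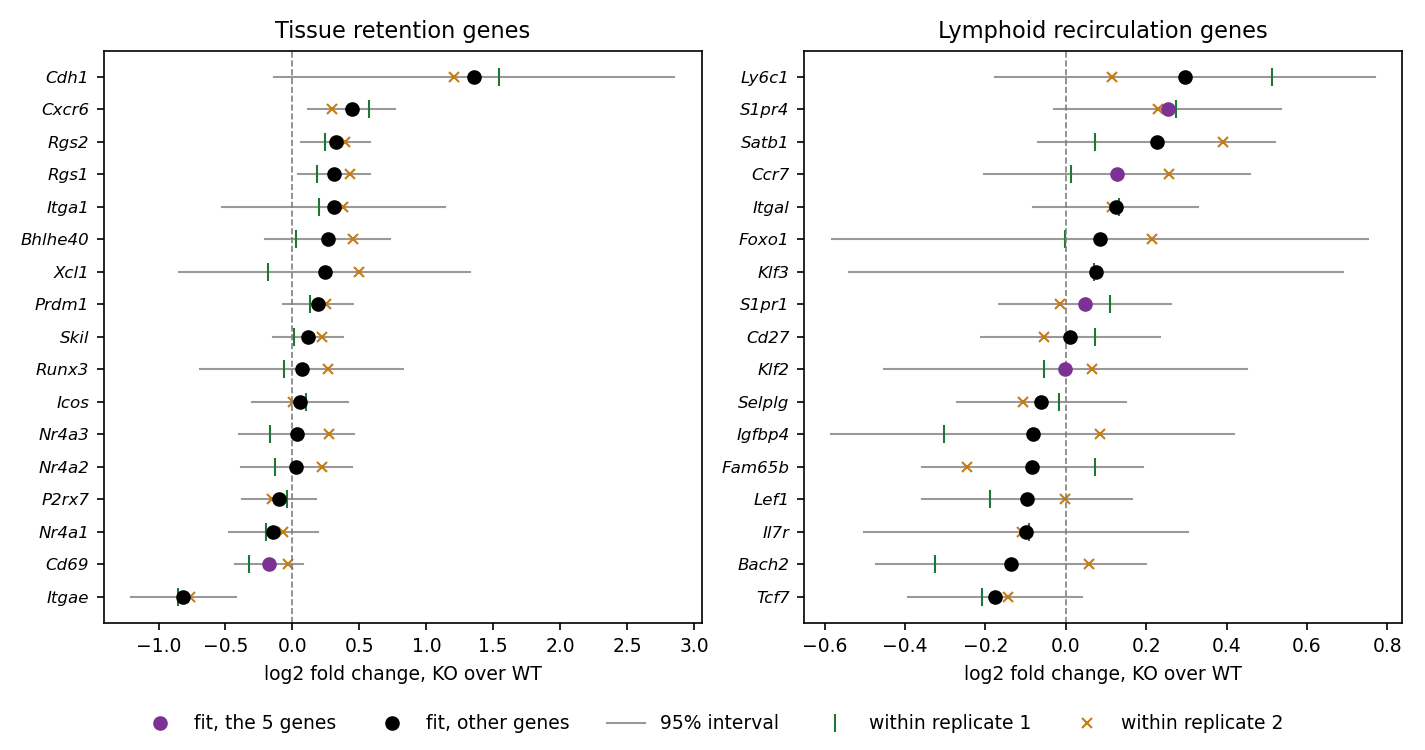
log2 fold change of KO over WT (horizontal axes) for tested genes of the tissue retention and lymphoid recirculation lists (1 recirculation gene is not shown), with dots for the fit, grey lines for its 95% interval, and bars and crosses for the ratios within replicates 1 and 2. Cd69 lies next to Itgae at the low end of the retention list, and S1pr1, S1pr4, Klf2 and Ccr7 lie between -0.0012 and 0.25 in the recirculation list.

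Cd69 is also an activation transcript, and immediate early genes are given beside it. Of 18 tested, 14 were higher and 4 lower, against 52.0% higher over all tested genes. Their median log2 fold change was 0.11, with -0.01 within replicate 1, 0.29 within replicate 2 and -0.0018 without KO replicate 2. Dusp2 (0.24 ± 0.09), a phosphatase induced by activation, and Fosl2 (0.22 ± 0.14), an AP-1 subunit, had the lowest p, and neither was called. Junb, an AP-1 subunit, was called in the authors' deposited table (adjusted p = 0.0116) and had -0.09 ± 0.13 here (edgeR adjusted p = 1.00).

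Cells that share these transcripts were sought with marker lists. B cells also express Ccr7, Cd69, S1pr1 and Klf2, and the 9 B cell markers summed to 27.7 and 22.4 CPM in KO and 29.6 and 29.1 CPM in WT, lower in both KO libraries. Of these 9, 2 were higher and 7 lower, and 0 were called. Both KO libraries lay above both WT libraries for 1 and below them for 4, against 13.5% and 13.4% of all tested genes. Endothelial cells express S1pr1 and Klf2, and their 11 markers summed to 120 and 133 CPM in KO and 120.4 and 129.7 CPM in WT, of which Pecam1, also made by T cells, was 105 and 107 CPM in KO and 107 and 113 CPM in WT. The other 10 endothelial markers summed to 14.5 and 25.9 CPM in KO and 13.1 and 17.1 CPM in WT. All 10 had a fold change above 0 and Pecam1 one below 0, against 52.0% above 0 over all tested genes. The list's median log2 fold change was 0.37, with 0.06 within replicate 1 and 0.58 within replicate 2. Dendritic cell and macrophage markers, 12 found, summed to 124 and 86.2 CPM in KO and 147 and 88.7 CPM in WT, with higher sums in the replicate 1 libraries. Epithelial markers, 10 found, summed to 28.2 and 43.2 CPM in KO and 27.4 and 27.4 CPM in WT. Of these, 1 was called higher by DESeq2 and 3 were under the threshold in the authors' deposited table. Krt8, a keratin of gut epithelium, stood at 1.01 and 3.86 CPM in KO and 0 and 0.126 CPM in WT (DESeq2 adjusted p = 8.00e-04), and edgeR did not call it. The 9 epithelial markers tested were mixed, with 6 higher and 3 lower. Both KO libraries lay above both WT libraries for 5 and below them for 2, against 13.5% and 13.4% of all tested genes. These 2 were Epcam (12.2 and 13.7 CPM in KO, 14.7 and 14.5 CPM in WT) and Krt18 (1.43 and 1.53 CPM in KO, 2.01 and 2.26 CPM in WT). Stromal and glial markers, 10 found, summed to 10.2 and 76.8 CPM in KO and 13.9 and 65.1 CPM in WT, and plasma cell markers, 4 found, to 352 and 575 CPM in KO and 348 and 458 CPM in WT, both higher in the replicate 2 libraries. Most of the plasma cell sum was Igj (131 and 343 CPM in KO, 122 and 249 CPM in WT) and Xbp1 (215 and 224 CPM in KO, 217 and 201 CPM in WT). Xbp1 was not higher in WT replicate 2. CD8 and NK cell markers, 9 found, summed to 893 and 1171 CPM in KO and 982 and 1067 CPM in WT. Nearly all of that sum was Gzmb, at 879 and 1158 CPM in KO and 968 and 1053 CPM in WT. The next highest, Cd8b1, stood at 4.79 and 6.17 CPM in KO and 4.54 and 4.87 CPM in WT. Neutrophil and mast cell markers, 5 found, summed to under 1 CPM in each library, and 1 of them was at 0 throughout. No marker of the other lists was at 0 in all libraries. The part of such cells in the values of the 5 genes was not tested.

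The tested genes most like each of the 5 were sought among genes within 1 log2 unit of the same average level, by the Euclidean distance between log2 CPM values centred on each gene's own mean over the 4 libraries. The nearest to S1pr1 were Dnajc3 (distance 0.0109), Sp4 and Rhoh. The nearest to S1pr4 were Hist2h2ac (0.0260), Hist1h3a and Dynll1, of which the histone copies can share reads. The nearest to Klf2 were Ptges3 (0.0282), 2210018M11Rik and Rpl36, and the nearest to Ccr7 were Smarca5 (0.0293), Zfp36l2 and Pde4d. The nearest to Cd69 were Pim3 (0.0589), Tpr and Fryl. The median distance to all candidates was 0.189 for S1pr1, 0.337 for S1pr4, 0.365 for Klf2, 0.265 for Ccr7 and 0.303 for Cd69. With 4 libraries and from 766 to 4045 candidates per gene, close neighbours exist for many patterns.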

How the data were processed

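RNA-seq libraries from 2 KO and 2 WT samples of sorted large intestine Treg cells were analysed, out of 8 samples in the series. No ATAC-seq data, from the other 4 samples, were analysed here. The authors deposited whole-number counts per gene and library without normalization, with gene positions, and adjusted p-values. The deposited table does not name their comparison, which was taken to be KO against WT. Per the labels' protocols, ribosomal RNA was removed and 50 bp single-end reads were made. TopHat2, DESeq and the build mm9 were used, per the submitters' processing notes. How reads were counted, with which annotation and strand setting, is not given in the sources used here. Reads of overlapping or antisense genes can therefore be misassigned.

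The table held 19191 rows, of which 41 repeated a symbol. Total counts ran from 26862922 to 62402450. The test was edgeR 4.0.16 in R 4.3.3, the quasi-likelihood F-test in its older form with genotype as the only term, filterByExpr by group (14274 genes kept), TMM scaling and a threshold of 0.05 on the Benjamini-Hochberg adjusted p, with 2 residual and 3.49 prior degrees of freedom. DESeq2 1.42.0 gave an adjusted p for 17996 genes, and limma 3.58.1 (voom) was a further alternative. Ratios within a replicate number subtract log2 CPM computed with prior count 2. Columns were matched to samples by title. Alternatives covered scaling, filters, tests, the replicate number as a block, an adjusted p under 0.1 and leaving out each library. Such a fit leaves 1 library in a genotype, which is assumed to vary like the others. The scripts were tested on simulated data.

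The genes and lists were chosen with earlier results of these data known, so no p was adjusted over a list and lists were not tested. Genes were named by a rule that takes Ahr, the 5 genes, the genes of the S1P receptor, S1P metabolism, Klf and Foxo and CCR7 ligand lists, fixed members of the recirculation and retention lists, the 3 of lowest p of the other lists, genes called by any tool, and the 3 nearest in pattern. Not every gene the rule takes is reported here, and 1 gene of the recirculation list is counted but not reported. Named after their values were seen were Rgs2, Satb1, Itgal, Ly6c1, Selplg, Nr4a1, Nr4a2, Nr4a3, P2rx7, Runx3, Icos and Cdh1. The same holds for the markers Foxp3, Ctla4, Cd4, Tnfrsf18, Lyve1, Flt4, Prox1, Pecam1, Krt8, Krt18, Epcam, Cd8b1, Gzmb, Igj and Xbp1.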

Additional observations from a re-analysis of the deposited data

How the results depend on the processing

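None of the 5 genes was called in any of 13 alternatives (65 values). The lowest adjusted p without a block was 0.999, and S1pr1, S1pr4 and Cd69 kept their sign in every alternative. Without single libraries the log2 fold change ran from 0.00 to 0.09 for S1pr1, 0.16 to 0.33 for S1pr4 and -0.25 to -0.11 for Cd69. It ran from -0.20 to 0.23 for Klf2 and -0.033 to 0.30 for Ccr7. Klf2 was 0.0091 with limma-voom. In all, 52 genes were called without a filter, 48 with DESeq2 and 0 with limma-voom, from 0 to 2 by edgeR without single libraries and by DESeq2 29 without KO replicate 1, 7 without KO replicate 2, 14 without WT replicate 1 and 22 without WT replicate 2. The cause was not tested.

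Deviations of same-numbered libraries from their genotype mean correlated at 0.641 across 14274 genes. There are only 2 pairs, and the labels name no shared animal, litter or day. Replicate 2 was deeper in both genotypes, with more Lars2 and higher sums of stromal and glial and of plasma cell markers, as given above. The part of these features in the correlation was not tested, and whether same-numbered libraries share an origin is not known. A fit with that number as a replicate block called 458 genes (275 higher and 183 lower, 3.21% of those tested) on 1 residual degree of freedom. S1pr4 had an adjusted p of 0.0835 in that fit, Cd69 0.192, Ccr7 0.361, S1pr1 0.858 and Klf2 0.986, with a Klf2 log2 fold change of 0.0066. The block fit called Itgae lower (1.29e-10) and Cxcr6 (4.88e-05), Rgs1 (0.00780), Rgs2 (0.00319), Dusp2 (0.0207), Fosl2 (0.0484) and Satb1 (0.0493) higher. Itgae was also called without a filter (0.00295).

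Among 32 of the other named genes, signs turned in 8 of 412 values, all of them from fits without a library. The ranges there were -0.029 to 0.11 for S1pr2, -0.22 to 0.47 for Foxo1, -0.29 to 0.068 for Il7r, -0.16 to 0.66 for Itga1 and -0.21 to 0.032 for Junb. List medians changed sign in 6 of 96 values, all from fits without a library. The 95% intervals are per gene and not adjusted for the number of genes tested. Itgae, Cxcr6, Rgs1, Rgs2, Dusp2 and the marker Krt8 had intervals without 0 and were not called by edgeR with TMM, the filter and no block.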

Other observations

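Ratios of counts within a library need no scaling between libraries, and they were computed after the values of the 5 genes had been seen. The ratio of Cd69 to S1pr1 counts was 2.15 and 2.45 in KO and 2.90 and 2.48 in WT, lower in both KO libraries, with KO replicate 2 and WT replicate 2 nearly equal. The mean log2 ratio was 1.20 ± 0.135 in KO and 1.42 ± 0.160 in WT (SD, n = 2). The difference of -0.23 had a two-sided exact permutation p of 0.333, the smallest that 2 libraries against 2 can give, and ran from -0.34 to -0.11 without single libraries. The ratio of Cd69 to S1pr4 counts was 8.15 and 10.1 in KO and 12.3 and 12.1 in WT. The ratio of Cd69 to Ccr7 counts was 0.964 and 1.14 in KO and 1.22 and 1.39 in WT. The ratio of Cd69 to Klf2 counts, at 3.25 and 4.48 in KO and 3.92 and 4.79 in WT, overlapped. The ratio of S1pr4 to S1pr1 counts was 0.264 and 0.243 in KO and 0.235 and 0.205 in WT. These ratios share genes and libraries and are not independent of the fold changes above. A ratio of counts compares libraries only, since transcript lengths were not used.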
